A study of Rattus norvegicus with 48 samples.

Results

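Kidney gene expression of rat strain LF was compared between 10 and 7 days of gavage with indole-3-carbinol (I3C), which comes from cabbage-family plants and is turned in the stomach into ligands of the aryl hydrocarbon receptor. The comparison takes the arrays that the labels name for strain LF at these days, 4 at day 10 and 4 at day 7, which are 8 of the 48 arrays of the study. Every one of these animals was a male given 100 mg/kg/day, and the groups differ in the number of days, 7 or 10. The animals were 12 to 14 weeks old, and each group held 8 rats per the labels, which do not give the number behind each array. The other arrays cover strain LF at day 0 (carrier, vegetable oil) and strains F, L and FL at the same 3 times. Strain names are not expanded in the labels, and no alleles are listed. As known of the study from elsewhere, these rats carry a renin transgene driven by the Cyp1a1 promoter, which the compound switches on so that blood pressure rises, and the strains were bred to look for modifiers of the resulting kidney damage. No group received the carrier for 7 or 10 days, so that time on the compound and the day of collection cannot be told apart. Levels at day 0 are printed for orientation only, because clock genes are shifted there.

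Among genes past the test, the largest rises between the 2 days were in genes of the interferon response. Cells that sense viral or displaced nucleic acid release type I interferon, whose receptor signals through the kinases JAK1 and TYK2. The signal reaches a short promoter element, the interferon-stimulated response element, of genes that encode antiviral proteins. Interferon gamma, made mainly by T and NK cells, acts through another receptor with JAK1 and JAK2 and induces guanylate-binding GTPases and genes of antigen presentation. In the kidney the tubule, endothelium and resident macrophages all respond to interferon.

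Limma, fitted to the 12 group means over all 48 arrays with Benjamini-Hochberg adjustment over 7997 genes, called 107 genes at an adjusted p under 0.05 (1.34% of genes tested). Of these 101 were higher at day 10 (1.26%) and 6 were lower (0.075%). Mx2, an interferon-induced GTPase, was highest above its day 7 level, at 6.97-fold, and 25 of the 101 genes were higher by 2-fold or more. Of the 15 largest rises among genes that passed the test, had 3 or more probe sets and went the same way in all 4 replicate numbers, 13 were interferon list members. The interferon lists hold 45 of the 7997 genes tested and were chosen with earlier results of these data known. The day 10 and day 7 arrays did not overlap for 100 of the 107 genes, against 10.8% of all genes tested. The call used these same values, so that this separation follows largely from it and adds no support. Among the 101 genes that rose, 91 had a mean at day 7 below that of day 0, and 92 a mean at day 10 above it. Genes called for a low day 7 and a high day 10 tend to hold any other group in between. The same counts over all genes were not taken, so that neither a dip nor an overshoot can be read from them. The deposited values have unequal array medians, and the median difference over all genes was 0.07 on the log2 scale. After quantile normalization that median was -0.05 and the call split moved to 99 higher (1.24%) and 37 lower (1.7% called in all). Arrays with the same replicate number carry file names with a common start in the labels. With that number as a block limma called 547 genes (6.84%), 508 higher and 39 lower, which included the 107. The count depended on single arrays. It was 31, 64 or 70 without day 10 array 1, 2 or 4, and 259, 53 or 27 without day 7 array 1, 2 or 3. Leaving out replicate number 1, 2 or 3 in all groups gave 36, 31 or 20 genes, and a fit on the 8 arrays alone gave 25.

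**Figure D1:**
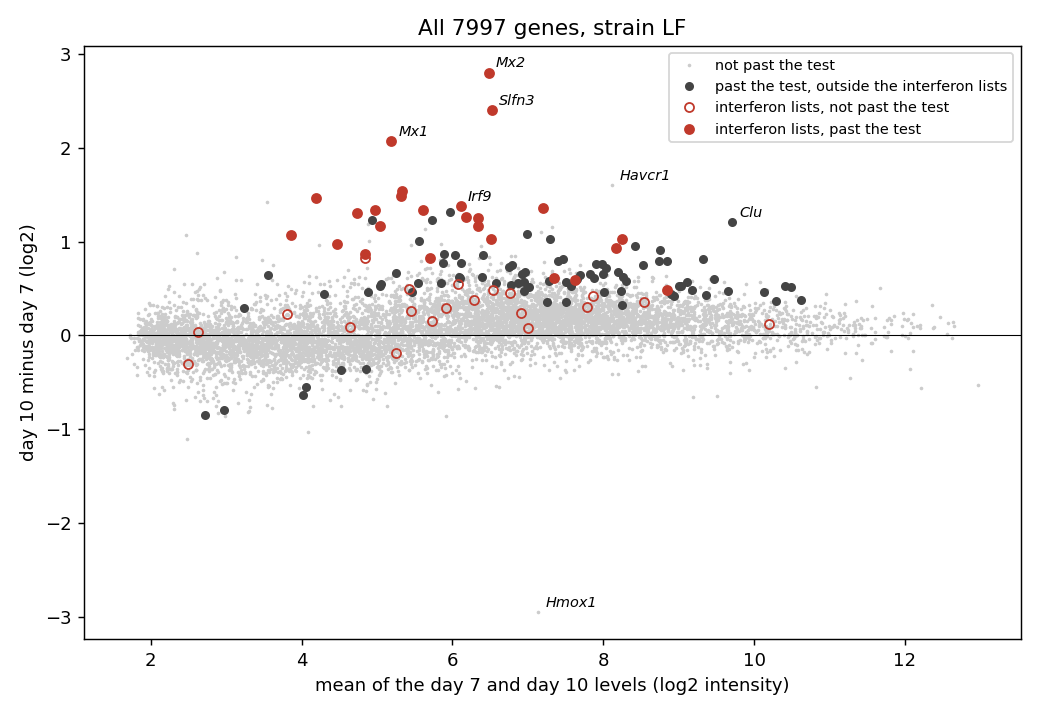
Each point is 1 of 7997 genes, with the mean of its day 7 and day 10 levels in strain LF (log2 intensity) on the horizontal axis and day 10 minus day 7 (log2) on the vertical axis; red marks the 5 interferon lists, filled where the gene passed the limma test and open where it did not, and dark points are the other genes past the test. Mx2, Slfn3 and Mx1 lie highest at 2.80, 2.40 and 2.07, and Hmox1 lies lowest at -2.95 without passing.

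Array medians over the probe sets were 6.38, 6.32, 6.07 and 6.15 in the day 7 arrays 1 to 4 and 6.58, 6.42, 6.39 and 6.35 in the day 10 arrays. The group means were 6.23 ± 0.14 and 6.44 ± 0.10 (SD, n = 4), a difference of 0.207 with an exact two-sided permutation p of 0.0571, where 0.0286 is the smallest possible. Over the whole study the medians ran from 6.03 to 6.61. Kidney markers were present in all 8 arrays, with log2 levels of 11.7 to 11.9 for the proximal tubule phosphate transporter Slc34a1, 12.5 to 12.8 for the loop of Henle gene Umod, 9.08 to 9.91 for the collecting duct water channel Aqp2 and 6.73 to 7.09 for the podocyte gene Nphs1. Cyp1a1, which reports exposure to the compound, measured 5.46, 5.98, 4.85 and 5.41 at day 7 and 6.35, 5.90, 4.54 and 4.98 at day 10, with overlapping groups (difference 0.02 ± 0.41, SE, limma adjusted p = 0.986). The sign of this difference turned in 6 of the alternative settings. At day 0 the strain LF arrays measured 4.67 to 5.23 for Cyp1a1. The lowest day 7 array (4.85) lay within that range and the lowest day 10 array (4.54) below it. Cyp1a1 thus does not show exposure in every array, and equal exposure on both days cannot be read from it.

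The 5 interferon lists together named 114 genes, of which 45 were measured. Of these 25 rose, 0 fell and 20 did not pass, against 1.26% of all genes tested that rose, and their median difference was 0.83 against 0.07 for all genes. The day 10 arrays lay above every day 7 array for 29 of the 45, where 9.04% of all genes did so. The lists were chosen with earlier results of these data known. These shares may partly follow from that choice and are no independent support, and the same holds for the other gene lists below. The number of list members called stayed between 12 and 26 in the 17 alternative settings, with the lowest value when replicate number 3 was left out. In the plot of gene lists, the antiviral effectors and the gamma GTPases lie furthest to the right.

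**Figure D2:**
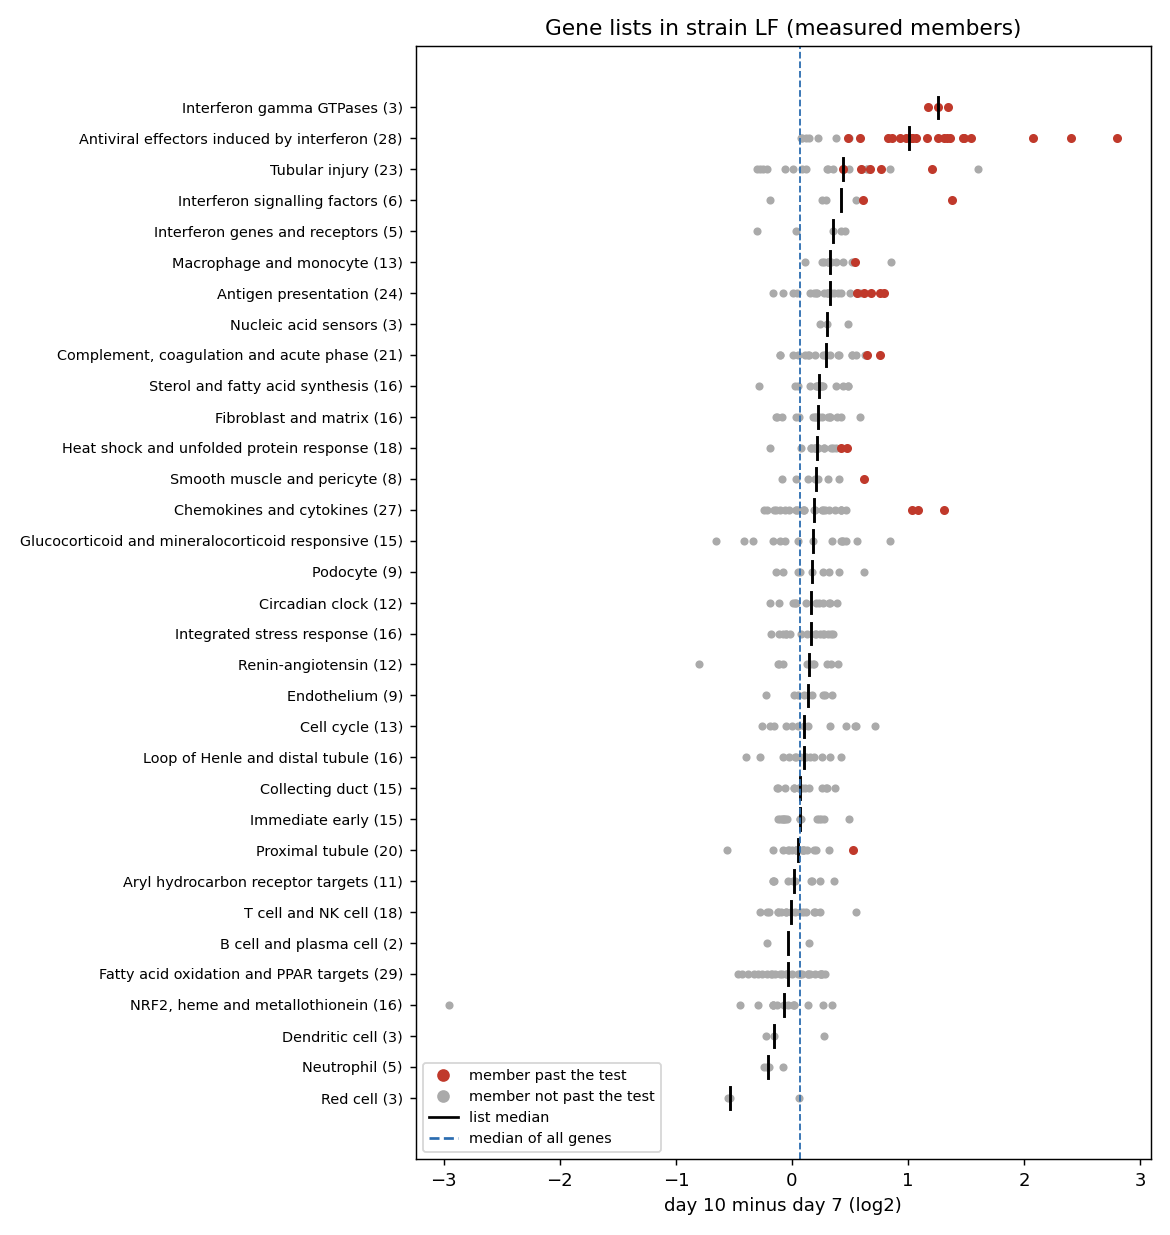
Each point is a measured member of a gene list in strain LF, with its day 10 minus day 7 difference (log2) on the horizontal axis and the list, with its number of measured members, on the vertical axis; red points passed the limma test, black bars are list medians and the dashed line is the median of all genes (0.07). Medians were 1.25 for the 3 gamma GTPases, 1.00 for the 28 antiviral effectors and 0.44 for the 23 tubular injury genes.

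The promoters of these genes were read from RefSeq (assembly GRCr8) over 250 bases before to 50 after the start, on both strands, for GAAANNGAAA, the core of the interferon-stimulated response element. At least 1 match stood in 1131 of the 27457 genes with a promoter entry (4.12%) and in 258 of 6578 genes tested on the arrays (3.92%). It stood in 17 of 80 genes that rose and had an entry (21.2%). Among interferon list members that rose the share was 13 of 21 (61.9%), beside 19 of 39 (48.7%) for all measured members with an entry. Among the other genes that rose it was 4 of 59 (6.78%), which include the antigen presentation genes Psmb8 and Tap1. The stretches below are the 8 genes with a match that had the smallest p, 1 stretch of 90 bases each, 5′ to 3′ on the strand of the gene, with capitals for the matches (overlapping matches are run together, and TTTCNNTTTC is the motif on the opposite strand).
Ifi27: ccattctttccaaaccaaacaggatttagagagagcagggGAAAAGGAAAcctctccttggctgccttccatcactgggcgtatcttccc
Oasl2: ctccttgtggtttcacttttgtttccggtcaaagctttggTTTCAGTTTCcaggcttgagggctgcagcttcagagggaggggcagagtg
Oas1i: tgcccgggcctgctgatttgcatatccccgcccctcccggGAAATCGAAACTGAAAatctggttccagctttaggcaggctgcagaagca
Lgals3bp: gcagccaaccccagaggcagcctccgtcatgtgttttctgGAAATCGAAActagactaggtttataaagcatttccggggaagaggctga
Apol9a: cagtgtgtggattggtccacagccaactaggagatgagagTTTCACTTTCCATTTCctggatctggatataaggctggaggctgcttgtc
Oas1a: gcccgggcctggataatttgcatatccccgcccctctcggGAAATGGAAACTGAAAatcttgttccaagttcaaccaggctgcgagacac
Bst2: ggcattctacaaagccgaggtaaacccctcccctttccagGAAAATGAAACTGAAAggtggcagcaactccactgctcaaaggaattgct
Gbp2: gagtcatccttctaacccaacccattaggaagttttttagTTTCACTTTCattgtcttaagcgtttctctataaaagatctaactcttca
Ifi27 lies at chr6:128355103-128355192 (plus strand), Oasl2 at chr12:47383287-47383376 (minus), Oas1i at chr12:41285150-41285239 (plus), Lgals3bp at chr10:104127849-104127938 (minus), Apol9a at chr7:111028236-111028325 (minus), Oas1a at chr12:41330385-41330474 (plus), Bst2 at chr16:18255049-18255138 (minus) and Gbp2 at chr2:234005656-234005745 (plus). The first base of the match lies between 31 bases (Gbp2) and 169 bases (Ifi27) before the start. Oas1i, Oas1a, Bst2 and Apol9a hold overlapping matches. Mx1, Slfn3, Slfn9, Phf11, Irf9, Stat2, Ifi47 and Sp100 have no match in this window, and Mx2 and Oas2 have no entry. A match is a match of letters and was not tested as a binding site.

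Antiviral effectors are the proteins at the end of the pathway, and 20 of 28 measured members rose, against 1.26% of all genes tested. Mx2, a dynamin-like GTPase that traps viral components, measured 4.85, 5.33, 5.0 and 5.14 in the day 7 arrays 1 to 4 and 7.29, 7.22, 8.81 and 8.20 in the day 10 arrays (log2 intensity). Every day 10 array lay above every day 7 array, arrays 3 and 4 highest, and the day 7 arrays lay below the day 0 arrays (6.99 to 7.55). The difference was 2.80 ± 0.35 (SE, n = 4 arrays against 4, limma adjusted p = 6e-06). Its paralog Mx1 measured 4.15, 4.09, 4.13 and 4.24 at day 7 and 5.63, 5.48, 7.12 and 6.66 at day 10, against 5.64 to 6.25 at day 0. The day 7 arrays spanned a narrow range and the day 10 arrays a wide one, with array 3 highest (2.07 ± 0.29, adjusted p = 2.38e-05). Slfn3, a member of the schlafen family of interferon-induced regulators, went from 5.13, 5.13, 5.33 and 5.69 to 7.19, 6.98, 8.60 and 8.12. Day 10 arrays 3 and 4 were again the highest, and the groups did not overlap (2.40 ± 0.31, adjusted p = 6.02e-06). Slfn9 of the same family measured 5.85, 5.50, 5.30 and 5.57 at day 7 and 7.15, 6.65, 6.87 and 6.59 at day 10, here with array 1 highest (1.26 ± 0.25, adjusted p = 0.003).

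**Figure D3:**
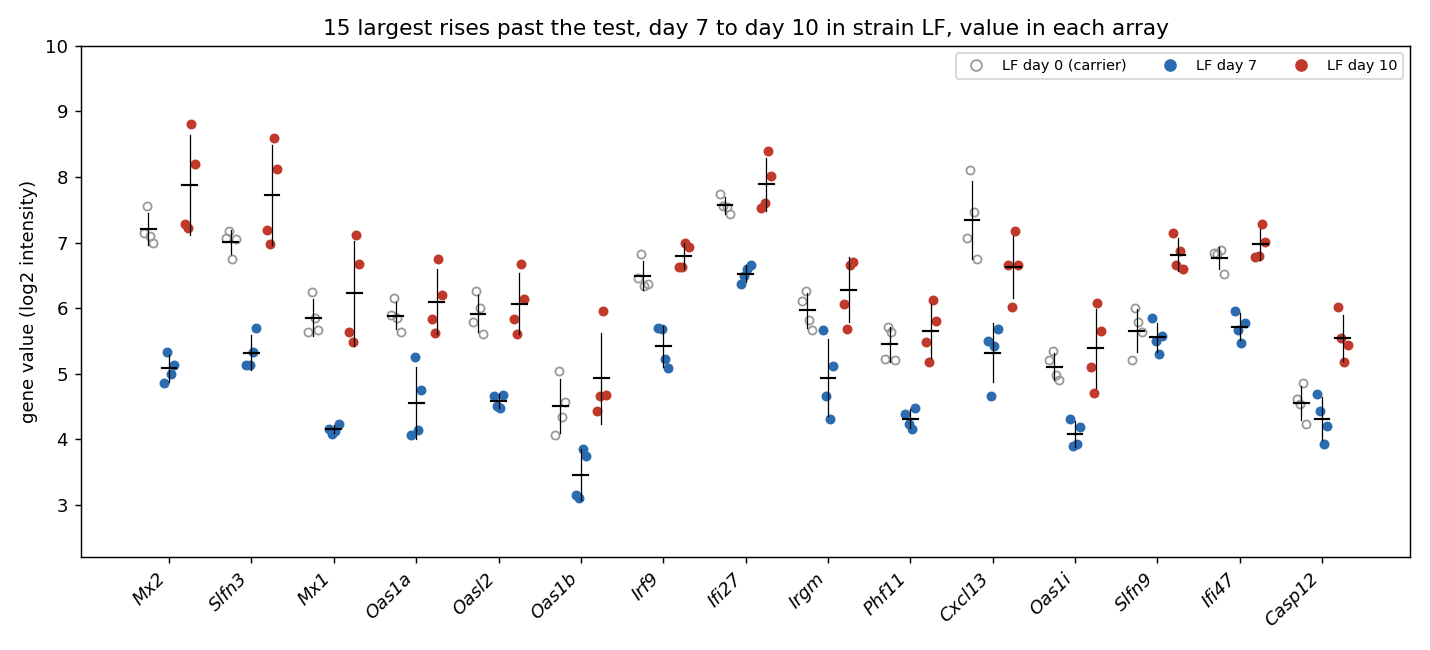
Gene values (log2 intensity) of the 15 genes with the largest rise from day 7 to day 10 in strain LF among genes that passed and had at least 3 probe sets, 1 point per array, with open points for day 0, blue for day 7 and red for day 10; horizontal bars are means and vertical lines the SD of 4 arrays. For all 15 the 4 day 10 arrays lie above the 4 day 7 arrays, and for Mx2 the day 7 points (4.85 to 5.33) lie below the day 0 points (6.99 to 7.55).

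The 2'-5' oligoadenylate synthetases make the messenger that activates RNase L, which degrades RNA in infected cells. Oas1a measured 4.07, 5.25, 4.15 and 4.75 at day 7 and 5.83, 5.62, 6.75 and 6.19 at day 10 (1.54 ± 0.27, limma adjusted p = 0.000619). Oas1i went from 4.30, 3.89, 3.93 and 4.19 to 5.09, 4.71, 6.08 and 5.65 (1.31 ± 0.21, adjusted p = 0.000327). Oas1b had its highest day 10 value in array 3, with 3.14, 3.11, 3.85 and 3.74 at day 7 and 4.43, 4.65, 5.96 and 4.67 at day 10 (1.47 ± 0.27, adjusted p = 0.00106). For none of these 3 did the groups overlap, but Oas1a, Oas1b and Oas1i are near-identical copies whose probe sets may read each other's RNA, so their separate values are uncertain, and all 3 missed the test in a fit on the 8 arrays alone. The related Oasl2 was tight at day 7 (4.65, 4.51, 4.47 and 4.68) and spread at day 10 (5.84, 5.60, 6.68 and 6.14), a difference of 1.49 ± 0.23 (adjusted p = 0.000138). Oas2 was dimmer, at 3.19 to 3.46 against 3.89 to 4.89, and also did not overlap (1.07 ± 0.18, adjusted p = 0.000619, not past on the 8 arrays alone).

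Ifi27, a small interferon-induced membrane protein, measured 6.36, 6.49, 6.59 and 6.66 at day 7 and 7.53, 7.60, 8.39 and 8.02 at day 10, against 7.43 to 7.75 at day 0. It differed by 1.36 ± 0.19 (limma adjusted p = 2.38e-05), and day 10 array 3 was the highest. Bst2, tetherin, which holds budding virus at the cell surface, went from 4.14, 3.91, 3.70 and 4.19 to 5.33, 4.79, 4.95 and 4.79, with array 1 highest (0.98 ± 0.17, adjusted p = 0.000827). Lgals3bp, a secreted glycoprotein that binds galectin 3, went from 7.55, 7.85, 7.52 and 8.01 to 8.50, 8.55, 9.17 and 8.84 (1.03 ± 0.17, adjusted p = 0.00056). Apol9a, an interferon-induced apolipoprotein L, ran from 4.10 to 4.63 at day 7 and from 5.09 to 6.03 at day 10 (1.16 ± 0.20, adjusted p = 0.000619). Phf11, a PHD finger protein, ran from 4.15 to 4.48 at day 7 and from 5.18 to 6.13 at day 10 (1.34 ± 0.23, adjusted p = 0.00056). In each of these 5 genes the lowest day 10 array stood above the highest day 7 array. Without replicate number 3, Bst2 and Lgals3bp no longer passed, and Ifi27, Apol9a and Phf11 still did. Other effectors past the test were Rsad2 (viperin, 1.03 ± 0.23), the entry blocker Ifitm3 (0.93 ± 0.19), galectin 9, Lgals9 (0.83 ± 0.15), the RNA editing enzyme Adar (0.59 ± 0.14) and Ly6e (0.48 ± 0.12). The effectors that did not pass included Ifit3 at 0.83 ± 0.27 (adjusted p = 0.107) and Ifit1 at 0.22 ± 0.36 (adjusted p = 0.767).

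Among the 6 signalling factors measured, Irf9 and Stat2, which act together in the nucleus, rose, where 1.26% of all genes tested did so. Irf9, which binds the response element, measured 5.69, 5.68, 5.23 and 5.08 at day 7 and 6.63, 6.62, 6.99 and 6.94 at day 10 (1.38 ± 0.23, limma adjusted p = 0.000386). Here day 7 arrays 3 and 4 were the lowest and day 10 arrays 3 and 4 the highest, and the day 0 arrays (6.34 to 6.82) overlapped the day 10 arrays. Stat2 went from 7.32, 7.25, 6.70 and 6.93 to 7.63, 7.49, 7.85 and 7.65 (0.61 ± 0.16, adjusted p = 0.0335), and it missed the test in 10 of 17 alternative settings. Irf1, a factor induced by interferon gamma, did not pass (0.55 ± 0.18, adjusted p = 0.11), but passed with the replicate block (adjusted p = 0.0426). Irf8, a factor of macrophages and dendritic cells, differed by 0.30 ± 0.17 (adjusted p = 0.324). Irf7 was not analysed here.

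All 3 measured GTPases of the interferon gamma response rose, against 1.26% of all genes tested. Gbp2, a guanylate-binding protein that attacks vacuoles holding microbes, measured 5.76, 5.49, 5.71 and 6.07 at day 7 and 6.95, 6.50, 7.26 and 6.99 at day 10 (1.17 ± 0.21, limma adjusted p = 0.00091). Irgm, an immunity-related GTPase, measured 5.66, 4.66, 4.30 and 5.12 and 6.06, 5.68, 6.66 and 6.71 (1.34 ± 0.26, adjusted p = 0.003). Its day 7 arrays varied by more than 1 log2 unit, and its groups were separated only narrowly. Ifi47 of the same family measured 5.96, 5.66, 5.46 and 5.78 and 6.78, 6.80, 7.29 and 7.01 (1.25 ± 0.26, adjusted p = 0.00501). Without replicate number 3 none of these 3 GTPases passed.

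None of the 5 measured genes for interferons, receptors and receptor kinases passed, where 1.34% of all genes tested did. At that share a list this short would be likely to hold no call, so that nothing can be read from the count. Of the 5 differences 4 were above 0, as were 4922 of all 7997, and their median was 0.35 against 0.07 for all genes. The kinases Jak1 (0.35 ± 0.14) and Jak2 (0.46 ± 0.18) had adjusted p values of 0.174 and 0.175, and the interferon gamma receptor Ifngr1 differed by 0.42 ± 0.23 (adjusted p = 0.308). The interferon genes themselves lay at the dim end of the arrays. Ifnb1, interferon beta, ranged over 2.26 to 3.19 at day 7 and 2.08 to 2.89 at day 10 (adjusted p = 0.546). Ifng ranged over 2.45 to 2.81 and 2.48 to 2.78 (adjusted p = 0.905), and the files give no detection call for these levels. Of the 3 sensor genes measured, the receptor for double-stranded RNA Tlr3 (0.49 ± 0.22) and the adaptor Mavs (0.24 ± 0.15) had adjusted p values of 0.229 and 0.359.

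The same change was then set against that of the other strains. In strains F, L and FL limma called 0 genes between day 10 and day 7, with 348, 377 and 481 genes at an unadjusted p under 0.05, against 1487 in LF. Mx2 differed by 0.01 ± 0.35 in F, 0.70 ± 0.35 in L and 0.22 ± 0.35 in FL (SE). Its arrays in L ran from 5.21 to 6.16 at day 7 and from 5.59 to 7.54 at day 10, so that they overlapped. Over the 45 interferon list members the median was -0.06 in F, 0.21 in L and 0.12 in FL, beside 0.83 in LF. Medians over all genes were -0.06, 0.05 and 0.06 in F, L and FL. The 3 gamma GTPases had medians of 0.06 in F, 0.40 in L and 0.41 in FL. A smaller change in the same direction in L and FL is thus not excluded by the 0 calls. The difference between the LF change and the mean of the other 3 changes was tested directly, and it passed for 13 genes (0.163% of genes tested), all with the larger rise in LF. The sizes were 2.49 ± 0.41 for Mx2 (adjusted p = 0.00112), 2.24 ± 0.36 for Slfn3 (adjusted p = 0.00112), 1.92 ± 0.34 for Mx1, 1.33 ± 0.26 for Oasl2, 1.32 ± 0.29 for Slfn9 and 1.27 ± 0.22 for Ifi27. Irf9, Phf11, Oas1i, Bst2 and Lgals3bp were also among them, which makes 11 members of the interferon lists (45 of the 7997 genes tested). The other 2 were Casp12 (1.13 ± 0.26) and Sp100 (1.10 ± 0.25). At day 7 the LF mean was the lowest of the strains for Mx2 (5.08, others 5.53 to 5.77), Oasl2 (4.58, others 5.06 to 5.42) and Irf9 (5.42, others 5.76 to 5.99). It was also the lowest for Mx1, Ifi27, Oas1i and Casp12, but not for Slfn3, Slfn9 and Phf11. The part of the low LF level at day 7 in these differences was not tested. The count of 13 rested on few arrays. It was 8, 6 or 5 without day 10 array 1, 3 or 4, and 8 or 4 without day 7 array 2 or 3. Leaving out replicate number 1, 3 or 4 gave 0, 1 or 4, and none of the 13 passed in all settings tried.

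**Figure D4:**
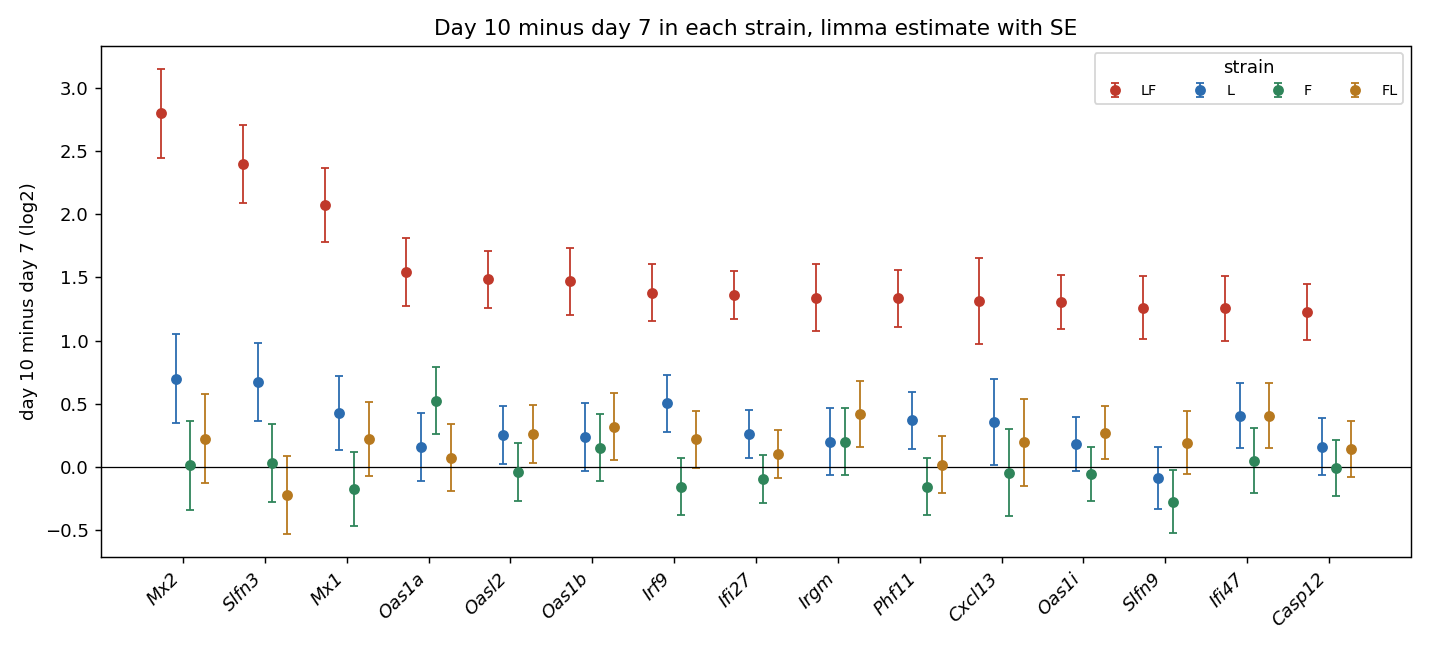
Day 10 minus day 7 (log2, limma estimate with SE, 4 arrays against 4) in strains LF, L, F and FL for the 15 genes with the largest rise in LF among genes that passed and had at least 3 probe sets, which were chosen by their LF value. LF runs from 2.80 (Mx2) to 1.23 (Casp12), and the highest estimate of these 15 genes in the other strains is 0.70 (Mx2 in L). Havcr1, at 1.60 in LF without passing, is not plotted and differed by 1.37 in L and 1.12 in FL.

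Outside the lists named for interferon, Casp12, an inflammatory caspase linked to endoplasmic reticulum stress, measured 4.69, 4.43, 3.93 and 4.20 at day 7 and 6.02, 5.55, 5.17 and 5.43 at day 10. Day 10 array 1 was the highest and the groups did not overlap (1.23 ± 0.22, limma adjusted p = 0.00102). Sp100, a component of nuclear bodies that interferon induces, went from 4.99, 5.22, 5.16 and 5.10 to 6.45, 5.94, 6.70 and 6.29 (1.23 ± 0.22, adjusted p = 0.000865). It was named for its strain difference.

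Antigen presentation genes carry peptides of cell proteins to the surface for T cells, and 5 of 24 measured members rose and 0 fell, against 1.26% of all genes tested that rose (median 0.32 against 0.07). These are the class I gene RT1-CE5 (0.79 ± 0.19, limma adjusted p = 0.0242), the immunoproteasome subunits Psmb8 (0.68 ± 0.16) and Psmb9 (0.62 ± 0.16), the peptide pump subunit Tap1 (0.56 ± 0.15) and the trimming peptidase Erap1 (0.76 ± 0.19). RT1-CE5 measured 7.37, 6.92, 6.97 and 6.76 at day 7 and 8.08, 7.53, 7.79 and 7.79 at day 10, and its groups did not overlap. Class I genes are near-identical copies, so that the reading of a single one is uncertain. Psmb8, Psmb9 and Tap1 did not pass after quantile normalization, and RT1-CE5 and Erap1 did. The class II gene RT1-Da (0.56 ± 0.16, adjusted p = 0.0633) passed with the replicate block (adjusted p = 0.0271).

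Among 27 chemokines and cytokines 3 rose and 0 fell (median 0.19), where 1.26% of all genes tested rose (median 0.07). Tnfsf10, the death ligand TRAIL and an interferon target, measured 7.09, 6.75, 6.48 and 6.78 at day 7 and 7.87, 7.60, 7.87 and 7.89 at day 10 (1.03 ± 0.23, limma adjusted p = 0.0174). Day 10 arrays 1, 3 and 4 lay close together and array 2 was lower, and no day 7 array reached them. Il33, an alarm cytokine stored in nuclei, went from 6.73, 6.33, 6.14 and 6.59 to 8.24, 7.44, 7.29 and 7.15, with array 1 highest (1.08 ± 0.28, adjusted p = 0.0332). Cxcl13, the B cell chemokine, went from 5.50, 4.66, 5.43 and 5.68 to 6.65, 6.01, 7.18 and 6.66 (1.31 ± 0.34, adjusted p = 0.0398). The day 0 arrays of Cxcl13 (6.74 to 8.11) reached above both. Il33 missed the test in 10 and Cxcl13 in 9 of 17 alternative settings. Ccl2, the monocyte chemokine, measured 4.96 to 5.59 and 5.54 to 5.97 (adjusted p = 0.111), and Cxcl16 9.16 to 9.36 and 9.62 to 9.82 (adjusted p = 0.0811, 0.0208 with the block).

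Tubular injury genes report damage and repair of tubule cells, and 5 of 23 measured members rose and 0 fell, against 1.26% of all genes tested that rose (median 0.44 against 0.07). Clu, the secreted chaperone clusterin, measured 9.53, 9.17, 8.72 and 8.98 at day 7 and 10.64, 10.40, 9.89 and 10.30 at day 10, above the day 0 arrays (8.26 to 8.62) on both days. Its groups did not overlap, and it differed by 1.21 ± 0.22 (limma adjusted p = 0.00102), a call that was kept in all 17 alternative settings. In the other strains Clu changed by -0.05 ± 0.22 in F, 0.63 ± 0.22 in L and 0.44 ± 0.22 in FL. The LF change minus their mean did not pass (0.87 ± 0.25, adjusted p = 0.245). Cd44, the hyaluronan receptor, went from 5.99, 5.92, 5.45 and 5.56 to 6.86, 6.42, 6.17 and 6.53 (0.77 ± 0.18, adjusted p = 0.026). The membrane-binding annexins Anxa1 (0.68 ± 0.17, adjusted p = 0.0335) and Anxa2 (0.60 ± 0.16, adjusted p = 0.0454) and the intermediate filament Vim (0.44 ± 0.12, adjusted p = 0.0475) rose by less, and Vim missed the test in 13 of 17 alternative settings. Havcr1, kidney injury molecule 1 of the proximal tubule, measured 8.25, 7.40, 6.56 and 7.08 at day 7 and 10.12, 8.78, 7.96 and 8.81 at day 10. All 8 values stood above the day 0 arrays (4.93 to 5.28), day 10 array 3 lay within the day 7 range, and the difference of 1.60 ± 0.47 did not pass (adjusted p = 0.0781, 0.0383 with the replicate block). The lipocalin Lcn2 lay at 5.85 to 7.22 and 6.78 to 7.50 (0.84 ± 0.26, adjusted p = 0.0927, 0.0459 with the block).

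Hmox1, heme oxygenase 1, which degrades heme and is induced by heme and oxidants, had the most negative difference of all genes tested without passing. It measured 9.90, 8.85, 10.23 and 5.47 at day 7 and 6.16, 5.73, 5.32 and 5.43 at day 10, against 4.42 to 4.63 at day 0. In the day 7 group 3 arrays were high and array 4 lay within the day 10 range. The difference of -2.95 ± 0.88 did not pass (limma adjusted p = 0.0811), and it passed with the replicate block (adjusted p = 0.0396). Without day 7 array 4 the difference was -4.0 (adjusted p = 0.0109). Changes in the other strains were -0.05 ± 0.88 in F, 1.66 ± 0.88 in L and 2.17 ± 0.88 in FL, and the LF change minus their mean was -4.21 ± 1.02 (adjusted p = 0.0771). Of the 16 measured genes of the NRF2, heme and metallothionein list 0 passed, where 1.34% of all genes tested did. Their median was -0.07, against 0.07 for all genes. Of 3 red cell genes, which report blood in the tissue, 0 passed, against the same share of all genes. Hba-a2, a hemoglobin alpha chain, measured 13.26, 13.34, 13.31 and 13.01 and 12.83, 12.52, 12.93 and 12.53 (-0.53 ± 0.15, adjusted p = 0.0639, 0.0335 with the block), and Hbb -0.55 ± 0.35 (adjusted p = 0.388). The part of red cells in the Hmox1 values was not tested.

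**Figure D5:**
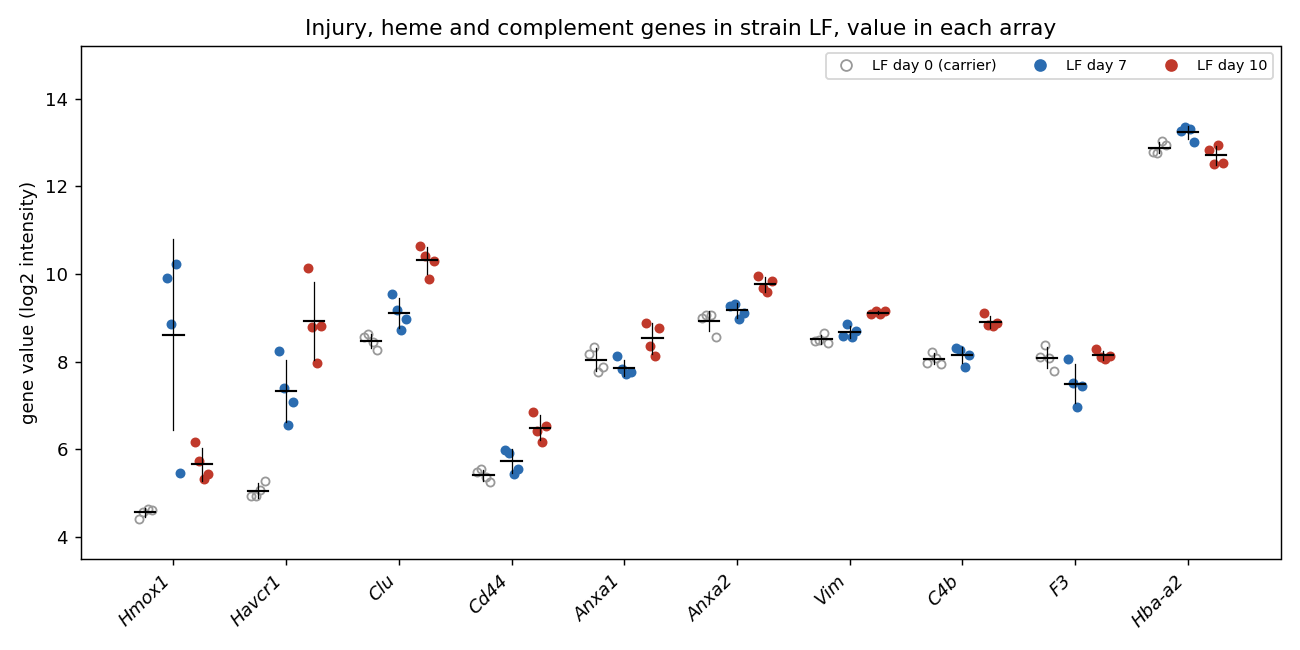
Gene values (log2 intensity) of 10 injury, heme, complement and red cell genes in strain LF, 1 point per array, with open points for day 0, blue for day 7 and red for day 10; horizontal bars are means and vertical lines the SD of 4 arrays. Hmox1 is spread from 5.47 to 10.23 at day 7 and from 5.32 to 6.16 at day 10, and Clu is separated between the days (8.72 to 9.53 and 9.89 to 10.64).

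Complement, coagulation and acute phase genes rose in 2 of 21 measured members and fell in 0 (median 0.29), where 1.26% of all genes tested rose. C4b, complement component 4, measured 8.31, 8.26, 7.88 and 8.15 at day 7 and 9.10, 8.84, 8.80 and 8.88 at day 10 (0.75 ± 0.15, limma adjusted p = 0.003). F3, tissue factor, which starts clotting, went from 8.05, 7.52, 6.96 and 7.44 to 8.28, 8.10, 8.06 and 8.13, and its day 10 arrays lay close together (0.65 ± 0.16, adjusted p = 0.0281). C1qa, made mainly by macrophages, differed by 0.63 ± 0.19 (adjusted p = 0.0811, 0.013 with the replicate block). The protein disulfide isomerases Pdia4 (0.48 ± 0.12) and Pdia6 (0.42 ± 0.11), which fold secreted proteins, were the 2 of 18 heat shock and unfolded protein response genes that rose. Their arrays overlapped between the days, and neither passed after quantile normalization.

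Markers of cell types were summed in each array, and in whole kidney RNA fewer cells of a type and less RNA per cell cannot be told apart. Of 13 macrophage and monocyte markers 1 rose, where 1.26% of all genes tested rose. It was Aif1, a calcium-binding protein of macrophages (4.82, 4.68, 4.74 and 4.89 at day 7 and 5.37, 5.18, 5.41 and 5.34 at day 10, difference 0.55 ± 0.12, limma adjusted p = 0.0174, not past after quantile normalization). All 13 differences were above 0, as were 4922 of all 7997, with a median of 0.33 against 0.07 for all genes, and the summed level of the list (linear intensity) ran from 1189 to 1469 at day 7 and from 1591 to 1836 at day 10. The Fc receptor Fcgr3a (0.85 ± 0.27, adjusted p = 0.0963) and the integrin Itgam (0.32 ± 0.09, adjusted p = 0.0636) passed with the replicate block (adjusted p = 0.0406 and 0.0297). Summed fibroblast and matrix markers ran from 4814 to 5602 and from 6096 to 6387, with 0 of 16 past the test. Summed smooth muscle and pericyte markers ran from 1182 to 1406 and from 1512 to 1652, with the contractile gene Tagln past the test (0.62 ± 0.15, adjusted p = 0.026). Podocyte markers ran from 2392 to 2878 and from 2916 to 3294, with 0 of 9 past. Endothelium markers ran from 1191 to 1452 and from 1457 to 1592, with 0 of 9 past. These 5 sums did not overlap between the days, and the array medians were higher at day 10 by 0.207 (log2) as well. The sums were not normalized for that difference, and the brightest markers weigh most in them. Of single genes, 9.04% had every day 10 array above every day 7 array. The T and NK cell sums overlapped (409 to 438 and 390 to 472), with 0 of 18 past and the T cell marker Cd3d between 2.67 and 3.29 in the 8 arrays. Neutrophil sums overlapped as well (64 to 77 and 55 to 79). The part of these cell types in the interferon genes was not tested.

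Tubule transport genes passed the test at a share close to that of all genes (1.34%), with 1 called in 3 lists of 20, 16 and 15 measured markers. The proximal tubule marker that rose was Slc13a1, the sulfate transporter (10.33, 10.26, 9.89 and 10.11 at day 7 and 10.82, 10.86, 10.48 and 10.55 at day 10, difference 0.53 ± 0.13, limma adjusted p = 0.0288). Pck1, the key enzyme of glucose synthesis, differed by -0.56 ± 0.18 (adjusted p = 0.11). The median over the proximal list was 0.05, and its summed level overlapped (48027 to 54317 and 49823 to 53408). No marker of the loop of Henle and distal tubule (0 of 16) or of the collecting duct (0 of 15) passed. Of 12 renin-angiotensin genes 0 passed, with Agt, angiotensinogen, at -0.08 ± 0.14 and Ace, the angiotensin-converting enzyme, at 0.13 ± 0.16 (adjusted p = 0.79 and 0.685). Of 11 aryl hydrocarbon receptor targets 0 passed.

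The clock genes, whose shift at day 0 keeps that group out of the comparison, were also checked between day 7 and day 10. Of 12 measured genes 0 passed, where 1.34% of all genes tested did. A list this short would be likely to hold no call at that share, so that the count does not show an equal clock on both days. Of the 12 differences 10 were above 0, as were 4922 of all 7997, with a median of 0.17 against 0.07 for all genes. Nr1d1, the repressor REV-ERB alpha, measured 7.69, 7.68, 7.80 and 8.53 at day 7 and 7.90, 8.10, 8.61 and 8.42 at day 10, against 8.81 to 9.44 at day 0. Its transcriptional target Bmal1 measured 6.44, 6.29, 5.75 and 5.17 and 6.08, 5.91, 5.72 and 5.49, against 3.59 to 4.39 at day 0. Dbp, a clock output gene, measured 7.97, 8.09, 7.87 and 8.69 and 8.18, 8.40, 8.85 and 8.48. Day 7 array 4 had the highest Nr1d1 and Dbp and the lowest Bmal1 of its group, and the same array had the low Hmox1. Its part in the results was not tested beyond leaving it out, which gave 85 called genes.

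The 6 genes that fell were all dim, with a mean at day 7 of 5.04 or less. Or5i1 (-0.85 ± 0.22) and Or1j13c (-0.79 ± 0.20) are olfactory receptor genes, Krt88 (-0.63 ± 0.16) encodes a keratin, Chrna3 (-0.55 ± 0.14) a nicotinic receptor subunit, Pmfbp1 (-0.37 ± 0.09) a sperm protein and Dnaaf1 (-0.36 ± 0.09) an assembly factor of cilia. Their limma adjusted p values lay between 0.0312 and 0.0339. Krt88 measured 4.27, 4.45, 4.41 and 4.20 at day 7 and 3.53, 3.77, 3.61 and 3.88 at day 10, and its groups did not overlap. None of the 6 passed in a fit on the 8 arrays alone. Or1j13c has 2 probe sets and was named after its value was seen.

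Exon arrays read a gene through several probe sets, and limma diffSplice tested whether the probe sets of a gene differed in their change. The F test called 173 of 7510 genes (2.3%), and the Simes test, which looks for few deviating probe sets, 44 (0.586%). Of the 173 genes 23 were also among the 107. Oas1a had the smallest p, with 8 probe sets whose differences ran from -0.21 to 4.24. The 13 probe sets of Mx2 all lay higher at day 10, by 0.93 to 4.14. Lgals9 (13 probe sets, -0.40 to 4.07), Oas1i (9 probe sets, 0.02 to 3.23) and Zdhhc2, a palmitoyltransferase (17 probe sets, -0.18 to 1.76), followed. At the strongest Mx2 probe set the level went from 4.87 to 9.0, and at the strongest Oas1a probe set from 3.17 to 7.41. Unequal probe response and unequal use of exons cannot be told apart in these values. The count was unstable, at 682 with the replicate block, 917 on the 8 arrays alone, 556 without day 7 array 1, 274, 16 and 24 without day 7 arrays 2, 3 and 4, 11 and 100 without day 10 arrays 1 and 2, and 40 and 10 without replicate numbers 1 and 3.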

How the data were processed

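Total RNA of rat kidneys was labelled with biotin after removal of ribosomal RNA and hybridised to exon arrays, 1 array per sample, per the labels' protocols. The values that the authors deposited are RMA log2 intensities of 92401 probe sets on 48 arrays with 0 missing values, and the submitters' processing notes name RMA and limma with no version. A detection filter and the annotation behind them are not stated. How RMA summarises probes can compress differences of dim probe sets.

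Gene names came from the platform's annotation, and the 85406 probe sets with a single symbol were used (1803 had several and 5192 none). Symbols were updated through RefSeq's gene list for assembly GRCr8 (6113 current, 1876 updated, 27 kept). The probe sets of a gene were summarised by Tukey's median polish into 1 value per array, for 7997 genes (median 9 probe sets each).

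The model, in limma 3.58.1 (R 4.3.3, data.table version 1.17.8), had 12 group means over 48 arrays (36 residual degrees of freedom) and eBayes. P-values were adjusted over all genes (Benjamini-Hochberg), with calls at an adjusted p under 0.05. Contrasts were LF day 10 minus day 7, the same in F, L and FL, and LF minus the mean of those 3. For diffSplice, probe sets were weighted by the inverse of their residual variance, because the unweighted test made too many false calls on simulated data. Figures were drawn with matplotlib 3.10.9.

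Strain and day come from the sample titles. No 2 arrays held identical values. Deviations from group means correlated at 0.333, 0.0662, 0.144 and 0.0908 for the 4 LF pairs of the same replicate number. Over 12 pairs of different numbers the mean was -0.0525, with a range of -0.322 to 0.244. Deviations from a group mean cancel within the group, so that positive values for the same number push the mean of the others down. The mean of the 12 is thus no independent contrast and cannot decide whether the number pairs arrays. The number was taken to pair arrays because file names in the labels begin alike within it, and the fit with it as a block is printed where it changes a call. P-values measure the spread between arrays, which may be technical, and the number of arrays limits precision.

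The comparison, the 33 gene lists and the rule for named genes were chosen with earlier results of these data known. The rule takes up to 15 rises and 15 falls past the test (at least 3 probe sets, same sign in all 4 numbers), up to 6 members of each list with the smallest adjusted p (12 for interferon lists), 5 and 5 genes for the strain difference, 5 for probe set use, and always Mx1, Mx2, Cyp1a1, Hmox1, Havcr1, Agt, Ace, Nr1d1, Dbp and Bmal1. Lesser antiviral effectors, Sp100, Or1j13c and the genes of the closing section outside it were chosen after their values were seen. Alternatives were the replicate block, quantile normalization, the mean of probe sets, leaving out the dimmest 33.3% of genes, the compared groups alone, and leaving out each array or replicate number.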

Additional observations from a re-analysis of the deposited data

Results flagged for a closer look

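The rise from day 7 to day 10 was larger in strain LF than the mean of strains F, L and FL for 13 genes, by a limma test of the difference itself. The differences of log2 changes were 2.49 for Mx2, 2.24 for Slfn3, 1.92 for Mx1, 1.33 for Oasl2, 1.32 for Slfn9, 1.27 for Ifi27, 1.26 for Phf11, 1.19 for Irf9, 1.17 for Oas1i, 1.13 for Casp12, 1.10 for Sp100, 1.05 for Bst2 and 0.905 for Lgals3bp, with adjusted p values between 0.00112 and 0.0497.

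Single arrays stood apart from the other 3 of their group in 7 of 186 groups of 4 values looked at (Dixon's criterion, which chance meets in about 1 in 20 groups). Within the interferon lists, Oas1b was high in day 10 array 3 (5.96, nearest 4.67). Ifitm3 was low in day 7 array 1 (7.11, nearest 7.84), Ifit3 low in day 7 array 4 (4.21, nearest 4.49) and Jak1 low in day 7 array 3 (8.05, nearest 8.45). Ifnb1 was high in day 10 array 2 (2.89, nearest 2.21). Tnfsf10 was low in day 10 array 2 (7.60, nearest 7.87). The clock gene Nr1d1 was high in day 7 array 4 (8.53, nearest 7.80).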

How the results depend on the processing

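With 4 arrays a group, calls near the threshold turned with single arrays. Of 63 named genes past the test, 11 kept call and direction in all 17 alternative settings run (Mx2, Slfn3, Mx1, Oasl2, Ifi27, Phf11, Slfn9, Apol9a, Irf9, Casp12 and Clu), and 0 changed sign in any. Where the groups do not overlap, leaving out arrays cannot turn a sign, and the block leaves the difference unchanged. The lack of sign changes there was fixed in advance. The replicate block, in which the number pairs arrays, gave 547 called genes in place of 107, 682 for probe set use in place of 173, 76 list members and 71 genes of the naming rule in place of 45 each, 14 for the strain difference and 1 gene in FL in place of 0, and it ended no call in LF. A fit on the compared groups alone, which uses fewer arrays, gave 25 called genes, 5 for the strain difference, 917 for probe set use, 16 list members and 17 genes of the naming rule. Leaving out single arrays or replicate numbers gave 20 to 259 called genes, 0 to 17 for the strain difference, 10 to 556 for probe set use, 15 to 62 list members, 16 to 58 genes of the naming rule and differences of 0.155 to 0.257 in the array median, which passed its test without day 7 array 1 (0.257). Signs of uncalled differences turned as follows. Cyp1a1 gave -0.16 after quantile normalization, -0.095 with the mean of probe sets and -0.28 to 0.32 with arrays left out (below 0 without day 10 array 1 or 2, day 7 array 3 or replicate number 1). Ifng gave -0.055 after quantile normalization and -0.020 to 0.11 with arrays left out (below 0 without day 10 array 2, day 7 array 3 or replicate number 3). Ace gave -0.068 after quantile normalization, Bmal1 -0.36 to 0.062 (above 0 without day 7 array 1 or 2), Agt -0.17 to 0.0072 (above 0 without day 7 array 2) and Ifit1 -0.079 to 0.50 (below 0 without replicate number 3). The causes were not tested.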

Other observations

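Genes outside the lists also rose in strain LF from day 7 to day 10; those given here were chosen after their values were seen, and limma gave the adjusted p values. Axl, a receptor kinase that clears dying cells, measured 7.52, 7.51, 7.11 and 7.31 at day 7 and 7.97, 8.05, 8.04 and 7.97 at day 10, with no overlap (0.65 ± 0.12, SE, adjusted p = 0.00222). Lama3, a laminin chain of basement membranes, was dim and separated, at 3.95 to 4.12 and 4.36 to 4.69 (0.45 ± 0.09, adjusted p = 0.003). Nox4, the NADPH oxidase of the renal tubule, went from 9.02, 8.74, 8.68 and 9.19 to 10.03, 9.75, 9.74 and 9.39 (0.82 ± 0.19, adjusted p = 0.0242), below or within its day 0 range of 9.77 to 10.48. The secreted protease Adamts1 (0.91 ± 0.23, adjusted p = 0.0328) and the phosphate transporter Slc34a2 (0.79 ± 0.21, adjusted p = 0.0493) rose as well, and each missed the test in 10 or more of 17 alternative settings.

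Another 6 genes that rose were picked by hand after their values were seen, from no list, and stand for no gene group. The crosslinker Actn1 differed by 0.60 ± 0.14, the tropomyosin Tpm1 by 0.46 ± 0.13, the monomer-binding thymosin Tmsb10 by 0.76 ± 0.18 and the leukocyte plastin Lcp1 by 0.75 ± 0.18 (adjusted p = 0.026, 0.0486, 0.0238 and 0.0242). The collagen-binding integrin Itga1 differed by 0.53 ± 0.13 and the annexin Anxa5 by 0.52 ± 0.12 (adjusted p = 0.0312 and 0.0199). For all of these 6 the day 10 arrays lay above every day 7 array, as for 9.04% of all genes tested. None of the 6 passed without day 7 array 3, and none passed the test of a difference between strain LF and the other strains.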
